A study of Mus musculus with 9 samples.

Results

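The T cell receptor complex and its coreceptors were followed as 10 genes, Cd3d, Cd3e, Cd3g, Cd247, Cd4, Cd8a, Cd8b1, Lck, Zap70 and Cd2. They were listed by symbol and matched through the GENCODE M21 annotation to 10 of the 56398 features in the deposited RNA-seq tables. All 10 passed the filter on low counts in each comparison. The study held 9 libraries in 3 groups of 3. AC libraries were from tumours of BALB/c mice injected with CT26, a colon carcinoma line that was itself raised in BALB/c mice, and dosed daily at 6 g/kg with Astragalus plus Curcuma phaeocaulis Valeton in 2 parts to 1. Model libraries were from tumours of the same kind in mice given daily saline, for which the labels also state 6 g/kg. Sham libraries were from healthy colon of BALB/c mice, which were not labelled as carrying a tumour. BALB/c is an inbred strain with its own T cells, so a tumour library holds RNA of the injected line and of host cells. Nothing in the labels says where the line was injected, for how long mice were dosed or whether replicates are separate mice, so the p-values speak of the spread among these libraries, which may be technical.

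As background, the antigen receptor of a T cell is a pair of variable chains, alpha with beta or gamma with delta, that has no signalling part of its own. It is held at the surface by the CD3 gamma, delta and epsilon chains and by CD247, the zeta chain, whose cytoplasmic tyrosines are phosphorylated by the kinase LCK and then bound by the kinase ZAP70. The coreceptors CD4 and CD8 bind MHC class II and class I and bring LCK to the receptor. CD8 is an alpha-beta pair on conventional cytotoxic T cells and an alpha-alpha pair on many intraepithelial lymphocytes of the gut, a number of which carry the gamma-delta receptor.

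The CD3 chain genes lie side by side on chromosome 9 of GRCm38 in GENCODE M21. Cd3g (ENSMUSG00000002033, minus strand) was at chr9:44969572-44980431, Cd3d (ENSMUSG00000032094, plus strand) at chr9:44981786-44987339 and Cd3e (ENSMUSG00000032093, minus strand) at chr9:44998740-45009627. Cd3d and Cd3g are transcribed away from each other from starts 1.4 kb apart. The coreceptor genes Cd8b1 (ENSMUSG00000053044, chr6:71322788-71337494) and Cd8a (ENSMUSG00000053977, chr6:71373427-71379173) are both on the plus strand, with starts 50.6 kb apart. The other members stand alone, Cd4 (ENSMUSG00000023274) at chr6:124864692-124888221 on the minus strand, Cd247 (ENSMUSG00000005763) at chr1:165788681-165877277 on the plus strand and Zap70 (ENSMUSG00000026117) at chr1:36761798-36782818 on the plus strand. Lck (ENSMUSG00000000409) is at chr4:129548344-129573641 and Cd2 (ENSMUSG00000027863) at chr3:101275899-101287939, both on the minus strand. Of the 5329 exonic bases of Cd247, 3007 are shared with Pou2f1 on the opposite strand. The strand setting of the counting is not stated in the sources used here, so reads of the 2 genes may not have been told apart and Cd247 values are uncertain. Cd3e shares 135 of its 4080 exonic bases with the opposite-strand gene Gm48719.

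Promoter sequence from RefSeq (GRCm38.p6) was matched for 7 of the 10 genes, all but Cd4, Cd8b1 and Cd2, in 10 windows of 250 bases before a transcript start, since Zap70 has 3 starts and Lck has 2. The windows of the CD3 chain genes are shown because each of these genes fell against sham in both kinds of tumour, as did some other members. That of the outer Lck start is shown because it held both letter strings that were marked, as did a Zap70 window that is not shown. Each is given on the gene's own strand and ends at the base before the start, and capitals mark CAGGAAG or its reverse complement CTTCCTG, a core of ETS factor sites, and TGTGGT or its reverse complement ACCACA, a core of RUNX factor sites.
Cd3g, chr9:44980432-44980681, minus strand: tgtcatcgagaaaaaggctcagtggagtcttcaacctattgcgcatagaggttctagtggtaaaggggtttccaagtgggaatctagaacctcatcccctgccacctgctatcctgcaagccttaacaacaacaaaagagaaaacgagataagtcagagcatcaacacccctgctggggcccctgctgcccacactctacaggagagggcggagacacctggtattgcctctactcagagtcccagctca
Cd3d, chr9:44981536-44981785, plus strand: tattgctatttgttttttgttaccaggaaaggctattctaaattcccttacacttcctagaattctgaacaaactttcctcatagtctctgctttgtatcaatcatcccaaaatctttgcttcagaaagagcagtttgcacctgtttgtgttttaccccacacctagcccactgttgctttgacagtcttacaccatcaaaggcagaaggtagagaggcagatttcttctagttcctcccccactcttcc
Cd3e, chr9:45009612-45009861, minus strand: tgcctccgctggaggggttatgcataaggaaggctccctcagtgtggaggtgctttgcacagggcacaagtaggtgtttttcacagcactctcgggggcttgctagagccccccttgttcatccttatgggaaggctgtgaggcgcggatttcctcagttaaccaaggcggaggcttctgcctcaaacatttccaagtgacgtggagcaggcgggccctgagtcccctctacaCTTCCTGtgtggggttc
Lck, chr4:129573642-129573891, minus strand: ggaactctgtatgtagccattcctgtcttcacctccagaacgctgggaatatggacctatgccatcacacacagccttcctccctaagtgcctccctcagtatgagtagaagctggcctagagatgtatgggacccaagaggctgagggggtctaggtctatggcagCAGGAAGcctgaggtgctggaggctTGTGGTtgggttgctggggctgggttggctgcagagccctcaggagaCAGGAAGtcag
The Cd3e window held the ETS letters 17 bases before the start, and the windows of Cd3d and Cd3g, which share an intergenic stretch, held neither string. The Lck window held the ETS letters at 83 and 11 bases and the RUNX letters at 58 bases before the start. The Zap70 window at chr1:36764265-36764514 held the ETS letters at 39 bases and the RUNX letters at 75 bases before its start. Over the 10 windows, on both strands and with no overlap between strings, the ETS letters were found in 5 windows, of Cd247, Cd3e, Zap70 and Lck, against 10.8% of 32851 RefSeq promoter windows of the same length. The RUNX letters were found in 2 windows, of Lck and Zap70, against 14.0% of all windows. The TATA letters TATAAA were found in 0 of the 10 windows, against 12.4%, and the E box letters CANNTG in 9 of the 10, against 66.2%. The strings were chosen after the sequences had been seen, and a match is a description of letters only.

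Library totals ran from 15690038 to 23476056 counts, so 3 counts, taken as the floor of detection, stand for 0.112 to 0.240 CPM (counts scaled to library size, here with TMM factors over the 9 libraries). Sham 1 stood apart from the rest of its group before any T cell gene was considered. Its 11 B cell and follicle genes summed to 1345 CPM, against 156 CPM in sham 2 and 86.2 CPM in sham 3, and Ptprc, the gene of the leukocyte antigen CD45, was at 298 CPM there, against 61.4 CPM in sham 2 and 56.2 CPM in sham 3. Its 5 smooth muscle genes summed to 107 CPM, against 1171 and 1284 CPM in sham 2 and sham 3. Members, gene lists and ratios set against sham are therefore also given without sham 1. The part that this library's lymphoid transcripts have in the results was not tested beyond that. Sham 2 and sham 3, which then remain, were the most alike pair within any group. Their counts differed with a chi-square per degree of freedom of 2.88, against 9.2 to 105 for the other pairs. On the colon side, p-values without sham 1 rest on the spread of this pair alone. Among tumours, AC 3 and model 1 carried the epithelial adhesion gene Epcam at 67.6 and 35.6 CPM, against 0.259 to 0.950 CPM in the other 4. The 8 epithelial genes summed to 265 to 899 CPM in AC tumours and 185 to 497 CPM in model tumours, against 18688 to 27107 CPM in sham colon, so tissue labelled colon tumor held few transcripts that define colon epithelium.

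Transcripts of the receptor complex were scarce in tumours. Summed over the 10 genes they came to 20.7, 16.8 and 25.8 CPM in AC 1 to 3, to 35.4, 26.1 and 36.8 CPM in model 1 to 3, and to 150.3, 59.0 and 52.3 CPM in sham 1 to 3. The CD3 chains, CD4 and LCK were lower in both kinds of tumour than in colon, Cd8a was close to its colon level in model tumours, and Cd8b1 was the one member whose mean scaled CPM was highest in model tumours. In bulk tissue, fewer T cells and less RNA per T cell cannot be told apart.

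**Figure D1:**
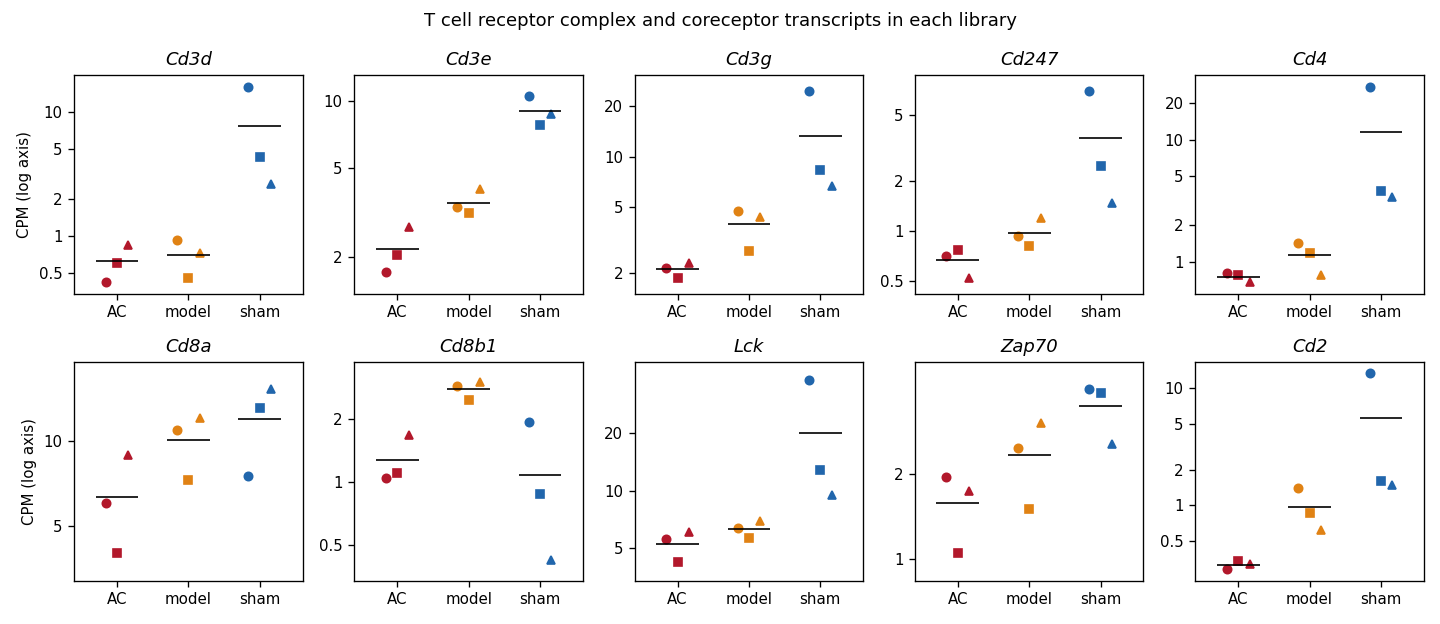
TMM-scaled CPM of each of the 10 genes in every library on a log axis, with AC tumours (red), model tumours (orange) and sham colon (blue); circle, square and triangle are replicates 1, 2 and 3 and the bar is the group mean. Sham 1 is far above the other 2 sham libraries for Cd3d, Cd3g, Cd247, Cd4, Lck and Cd2, and model libraries are the highest for Cd8b1, at 2.46 to 3.01 CPM.

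Cd3e encodes CD3 epsilon, the chain that pairs with both gamma and delta. It had 1.71, 2.05 and 2.73 CPM in AC 1 to 3, 3.35, 3.14 and 4.04 CPM in model 1 to 3, and 10.5, 7.85 and 8.78 CPM in sham 1 to 3. The 3 groups did not overlap, with AC lowest and sham highest, and sham 1 was close to the other sham libraries. Cd3e fell by 1.35 ± 0.247 log2 units (SE) in model tumours against sham (edgeR adjusted p = 0.00269) and by 2.06 ± 0.311 in AC tumours against sham (edgeR adjusted p = 0.00141). Between tumours, the log2 fold change of AC against model was -0.70 ± 0.273 (edgeR adjusted p = 0.34), which did not pass. Of the CD3 chain genes, Cd3e was the one least moved by leaving out sham 1, with fold changes of -1.21 for model and -2.01 for AC.

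Cd3g encodes CD3 gamma. It had 2.14, 1.88 and 2.31 CPM in AC 1 to 3, 4.73, 2.73 and 4.35 CPM in model 1 to 3, and 24.7, 8.33 and 6.65 CPM in sham 1 to 3. Again no library of one group reached into another, and sham 1 was far above the other sham libraries. Cd3g fell by 1.75 ± 0.581 log2 units in model tumours against sham (edgeR adjusted p = 0.0323) and by 2.66 ± 0.585 in AC tumours against sham (edgeR adjusted p = 0.00658). Without sham 1 the falls were 0.89 and 1.89, and both still passed. Between tumours, AC against model gave -0.90 ± 0.282 (edgeR adjusted p = 0.277).

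Cd3d encodes CD3 delta, and its start is the near neighbour of the Cd3g start. It had 0.428, 0.609 and 0.839 CPM in AC 1 to 3, 0.930, 0.455 and 0.726 CPM in model 1 to 3, and 15.9, 4.33 and 2.62 CPM in sham 1 to 3. Both kinds of tumour were below every sham library, but AC and model tumours overlapped. Cd3d fell by 3.42 ± 0.8 log2 units in model tumours against sham (edgeR adjusted p = 0.00802) and by 3.61 ± 0.817 in AC tumours against sham (edgeR adjusted p = 0.00746), the largest falls of the CD3 chain genes. Without sham 1 they were 2.24 and 2.53. The difference of AC from model was -0.18 ± 0.434 (edgeR adjusted p = 0.882), and the sign turned to 0.042 without AC 1 and 0.087 without model 1, so Cd3d showed no stable direction between tumours. The raw counts behind these tumour values were 9 to 16 in AC and 10 to 25 in model libraries.

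Cd247 encodes the zeta chain, which NK cells use as well. It had 0.713, 0.775 and 0.525 CPM in AC 1 to 3, 0.930, 0.818 and 1.19 CPM in model 1 to 3, and 7.00, 2.48 and 1.49 CPM in sham 1 to 3. The groups did not overlap, though model 3 and sham 3 were close. Cd247 fell by 1.90 ± 0.636 log2 units in model tumours against sham (edgeR adjusted p = 0.033) and by 2.46 ± 0.665 in AC tumours against sham (edgeR adjusted p = 0.0155). Without sham 1 the falls were 0.98 (edgeR adjusted p = 0.0451) and 1.62 (edgeR adjusted p = 0.00959). In AC against model the value was -0.54 ± 0.345 (edgeR adjusted p = 0.52).

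The coreceptors did not follow one pattern. Cd4, the coreceptor of helper and regulatory T cells, had 0.808, 0.775 and 0.682 CPM in AC 1 to 3, 1.41, 1.18 and 0.778 CPM in model 1 to 3, and 27.1, 3.77 and 3.40 CPM in sham 1 to 3. AC and model tumours overlapped by a narrow margin and both were below all sham libraries, of which sham 1 was by far the highest. Cd4 fell by 3.34 ± 0.952 log2 units in model tumours against sham (edgeR adjusted p = 0.018) and by 3.94 ± 0.975 in AC tumours against sham (edgeR adjusted p = 0.0108). Without sham 1 these falls were 1.61 (edgeR adjusted p = 0.00228) and 2.30 (edgeR adjusted p = 0.000477). Set against model tumours, AC tumours gave -0.58 ± 0.346 (edgeR adjusted p = 0.492).

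Cd8a encodes the CD8 alpha chain, which a class of mouse dendritic cells also transcribes. It had 6.03, 3.98 and 8.97 CPM in AC 1 to 3, 11.0, 7.28 and 12.1 CPM in model 1 to 3, and 7.54, 13.1 and 15.4 CPM in sham 1 to 3. Here sham 1 was the lowest sham library, the reverse of its place for Cd4 and the CD3 chains, and all 3 groups overlapped. The fold changes were -0.22 ± 0.322 for model against sham (edgeR adjusted p = 0.558), -0.90 ± 0.403 for AC against sham (edgeR adjusted p = 0.0868) and -0.67 ± 0.32 for AC against model (edgeR adjusted p = 0.416), none of which passed. Without sham 1, Cd8a fell by 1.24 log2 units in AC tumours against sham (edgeR adjusted p = 0.0128), a call that the full set did not give, and the sign in model tumours against sham turned to 0.40 without scaling factors and 0.0068 without model 2. The 7 dendritic cell genes summed to 16.3 to 22.1 CPM in AC tumours, 26.9 to 38.9 CPM in model tumours and 9.69 to 21.1 CPM in sham colon, and their part in the Cd8a values was not tested.

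Cd8b1 encodes the CD8 beta chain, found with alpha on conventional cytotoxic T cells. It had 1.05, 1.11 and 1.68 CPM in AC 1 to 3, 2.86, 2.46 and 3.01 CPM in model 1 to 3, and 1.94, 0.881 and 0.425 CPM in sham 1 to 3. Every model library was above every AC library and every sham library, and AC overlapped with sham. The fold change of model against sham was 1.36 ± 0.549 (edgeR adjusted p = 0.0626), short of the threshold, and was 2.13 ± 0.407 without sham 1 (edgeR adjusted p = 0.00135), where Cd8b1 was called higher. Between tumours, AC against model gave -1.12 ± 0.293 (unadjusted p = 0.00442, edgeR adjusted p = 0.257), and AC against sham 0.23 ± 0.596 (edgeR adjusted p = 0.745), whose sign turned to -0.02 without AC 3 and -0.17 without sham 3. Raw counts were 20 to 32 in AC, 54 to 77 in model and 6 to 25 in sham libraries.

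The kinases divided as well. Lck, the kinase that the coreceptors carry, had 5.56, 4.21 and 6.03 CPM in AC 1 to 3, 6.36, 5.64 and 6.89 CPM in model 1 to 3, and 38.1, 12.8 and 9.49 CPM in sham 1 to 3. AC and model tumours overlapped, and all were below sham. Lck fell by 1.69 ± 0.558 log2 units in model tumours against sham (edgeR adjusted p = 0.0319) and by 1.95 ± 0.583 in AC tumours against sham (edgeR adjusted p = 0.0227). Without sham 1 the falls were 0.79 and 1.15 and both passed, while AC against model gave -0.26 ± 0.214 (edgeR adjusted p = 0.633).

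Zap70, the kinase recruited to the phosphorylated chains, had 1.95, 1.05 and 1.73 CPM in AC 1 to 3, 2.46, 1.50 and 3.01 CPM in model 1 to 3, and 3.97, 3.85 and 2.55 CPM in sham 1 to 3. AC libraries were all below sham, and model libraries overlapped with both. Zap70 fell by 1.12 ± 0.382 log2 units in AC tumours against sham (edgeR adjusted p = 0.0368), and model against sham gave -0.56 ± 0.374 (edgeR adjusted p = 0.219), turning to 0.046 without scaling factors. Sham 1 and sham 2 were level, and leaving out sham 1 changed neither call. The call in AC against sham was lost without scaling factors, with no filter on low counts and with the replicate number as a block. It was also lost without AC 1, AC 2, AC 3 or sham 2. Over these refits the edgeR adjusted p was 0.0695 to 0.298. The difference of AC from model was -0.55 ± 0.358 (edgeR adjusted p = 0.529).

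Cd2 encodes an adhesion receptor of lymphocytes, T and NK cells among them. It had 0.285, 0.332 and 0.315 CPM in AC 1 to 3, from 6 counts in each library, 1.41, 0.864 and 0.622 CPM in model 1 to 3, and 13.5, 1.60 and 1.49 CPM in sham 1 to 3. The groups did not overlap, but model 1 and sham 3 nearly met, and sham 1 set the sham mean. Cd2 fell by 4.16 ± 1.08 log2 units in AC tumours against sham (edgeR adjusted p = 0.0131), and by 2.36 without sham 1 (edgeR adjusted p = 0.00143). Model against sham gave -2.50 ± 0.994 (edgeR adjusted p = 0.0594) and -0.61 ± 0.435 without sham 1 (edgeR adjusted p = 0.225). In AC against model the value was -1.64 ± 0.444 (unadjusted p = 0.00523, edgeR adjusted p = 0.257), the largest difference of any member between tumours. Sham 1 and model 1, where Cd2 was highest in colon and in tumours, also had the most of the B cell gene Ms4a1. It was at 308 CPM in sham 1, against 30.8 and 13.1 CPM in sham 2 and sham 3. In model 1 it was at 3.50 CPM, against 0 to 0.262 CPM in the other tumours. How much of the Cd2 values came from B cells was not tested.

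**Figure D2:**
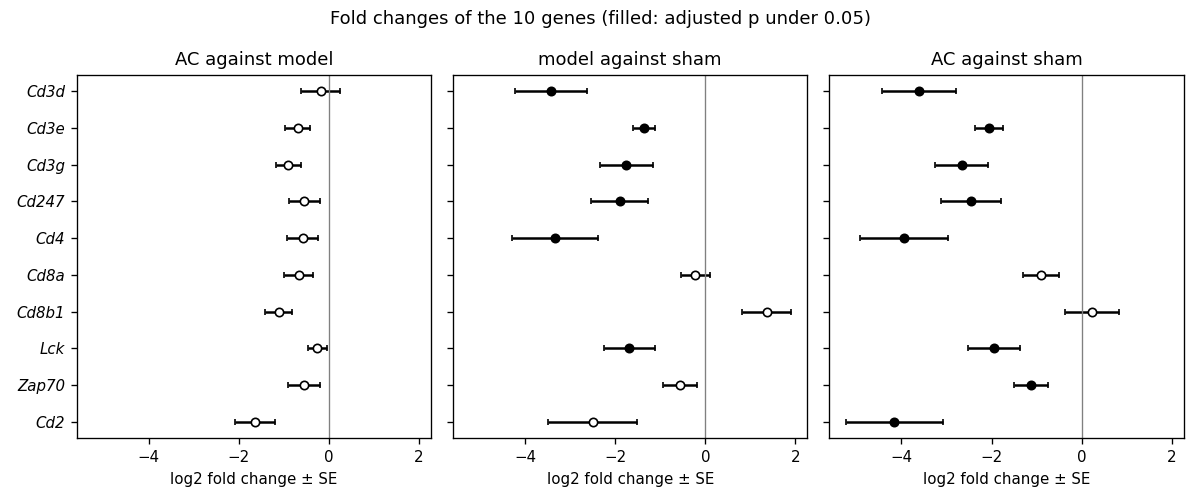
Log2 fold changes ± SE of the 10 genes in the 3 comparisons named above the panels, from edgeR fits of 3 libraries against 3; filled points have an adjusted p under 0.05. All 10 points are below 0 in AC against model with none filled, and Cd8b1 is the one gene above 0 in both comparisons with sham.

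AC tumours were set against model tumours to ask whether the herb pair changed the transcripts of the receptor complex. All 10 genes had a fold change below 0, as did 48.6% of the 17137 genes tested, with a median of -0.63 over the 10 against 0.01 over all genes. Of the 10, 0 passed the adjusted threshold in edgeR, as did 0.0% of all genes. DESeq2 called 305 of all genes and 0 members, and gave no adjusted p for Cd2, Cd247, Cd3d and Cd4. At an unadjusted p under 0.05, 4 members were lower, Cd8b1, Cd2, Cd3g and Cd3e, where 7.33% of all genes tested were. The AC and model libraries did not overlap for 5 members, Cd3e, Cd3g, Cd247, Cd8b1 and Cd2, each lower in AC, where 9.98% of all genes tested were lower without overlap, and 0 were higher, where 9.06% of all genes were. The members share cells and are not independent of each other. Ptprc had 78.8, 61.8 and 82.2 CPM in AC 1 to 3 and 104, 84.1 and 106 CPM in model 1 to 3, with no overlap, and the part of leukocyte content in the members' values was not tested.

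Model tumours were set against sham colon to ask how the receptor complex stands in an untreated tumour. Cd3d, Cd3e, Cd3g, Cd247, Cd4 and Lck fell, while Cd8a, Zap70, Cd2 and Cd8b1 did not pass. These 6 of 10 called lower and 0 called higher compare with 32.9% of 18228 genes called lower and 36.8% called higher, since most of the transcriptome differed between tumour and colon. The 10 had a median fold change of -1.72, against 0.12 over all genes tested. The libraries did not overlap for 7 members lower in model tumours, where 35.6% of all genes were, and for Cd8b1, higher in model tumours, where 41.3% were. Leaving out sham 1 kept those 6 calls and added Cd8b1 as higher, where 36.4% of all genes were called lower and 42.4% higher, and there were 3 calls without model 1 (Cd3d, Cd3e and Cd4) and 2 without model 2 or model 3 (Cd3d and Cd3e).

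AC tumours were set against the same sham libraries, so the 2 comparisons with colon are not independent. Cd3d, Cd3e, Cd3g, Cd247, Cd4, Lck, Zap70 and Cd2 fell, and Cd8a and Cd8b1 did not pass. These 8 of 10 called lower and 0 called higher compare with 32.7% of 17832 genes called lower and 35.5% called higher. The median fold change was -2.26, against 0.10 over all genes tested, and the same 8 did not overlap with sham, where 35.3% of all genes were lower without overlap, and 0 were higher, where 40.5% were. Leaving out sham 1 added Cd8a as lower and made 9, where 36.9% of all genes were called lower and 38.7% higher, and leaving out AC 1 left 5, Cd3d, Cd3e, Cd3g, Cd4 and Cd2.

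**Figure D3:**
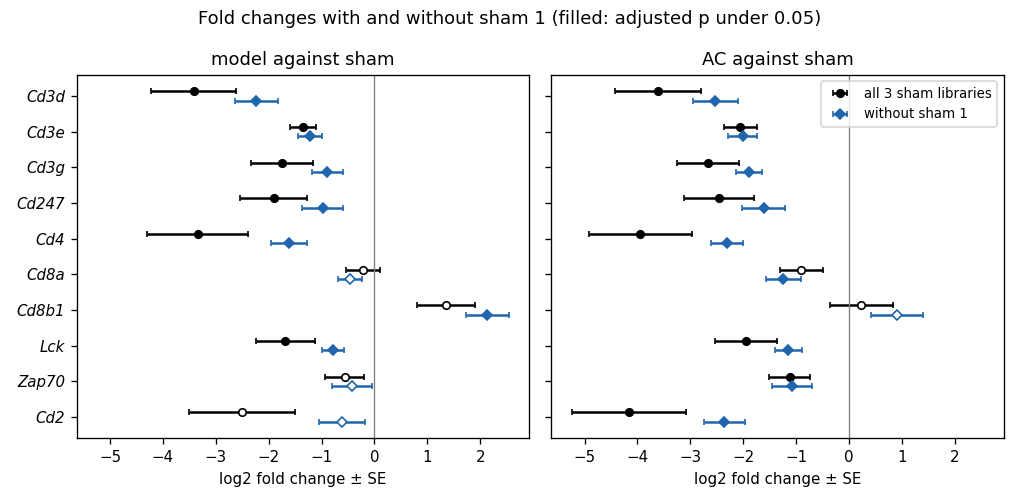
Log2 fold changes ± SE of the 10 genes in model against sham and in AC against sham with all 3 sham libraries (black circles) and without sham 1 (blue diamonds); filled points have an adjusted p under 0.05. Without sham 1 the falls of Cd3d, Cd3g, Cd247, Cd4, Lck and Cd2 shrink, that of Cd3e hardly moves, and Cd8b1 in model tumours shifts to 2.13 and is filled.

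Levels of different genes were compared within a group by FPKM, which divides by gene length. In AC tumours the order of mean FPKM was Lck 2.11, Cd8a 2.05, Cd8b1 1.01, Cd3g 0.756, Cd3e 0.621, Zap70 0.619, Cd3d 0.404, Cd4 0.219, Cd2 0.209 and Cd247 0.147. Of the neighbours in that order, only Cd3d over Cd4 and Cd2 over Cd247 had libraries that did not overlap. In model tumours the order of mean FPKM was Cd8a 3.20, Lck 2.47, Cd8b1 2.15, Cd3g 1.38, Cd3e 0.989, Zap70 0.894, Cd2 0.636, Cd3d 0.446, Cd4 0.319 and Cd247 0.212, and only Cd8b1 over Cd3g did not overlap. In sham colon it was Lck 5.29, Cd3d 3.25, Cd3g 3.12, Cd2 2.50, Cd8a 2.43, Cd4 2.22, Cd3e 1.66, Zap70 0.866, Cd8b1 0.561 and Cd247 0.529, and only Cd3e over Zap70 did not overlap. Mean FPKM, which carries no TMM factor, was highest in model tumours for Cd8b1, Cd8a and Zap70. Both CD8 chains were thus among the top 3 in each kind of tumour, while Cd8b1 was next to last in colon, where sham 1 raised most of the means.

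Ratios within a library do not depend on how libraries are scaled, and 8 were tested between the 6 tumour and 3 sham libraries with a two-sided exact permutation test on log2 count ratios, for which the smallest possible p is 0.0238. None passed after adjustment over the 8. Ratios at that smallest p had an adjusted p of 0.0952, so full separation of tumours from sham was not enough to pass. The ratio of Cd8b1 to Cd8a in FPKM was 0.425, 0.681 and 0.459 in AC 1 to 3, 0.640, 0.828 and 0.608 in model 1 to 3, and 0.632, 0.164 and 0.0675 in sham 1 to 3. Sham 2 and sham 3 had little beta chain for their alpha chain, and sham 1 was level with the tumours. On the log2 count scale the ratio was 1.58 higher in tumours than in sham (exact permutation p = 0.0952, adjusted p = 0.152), and 2.42 higher without sham 1.

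The ratio of Cd4 to Cd8a in FPKM was 0.121, 0.175 and 0.0686 in AC 1 to 3, 0.116, 0.147 and 0.0578 in model 1 to 3, and 3.25, 0.259 and 0.199 in sham 1 to 3. It was below every sham library in all 6 tumours, and sham 1 was the one library with more Cd4 than Cd8a. On the log2 count scale it was lower in tumours by a difference of -2.34 (exact permutation p = 0.0238, adjusted p = 0.0952), and of -1.07 without sham 1. The ratio of Cd8a to Cd3e was 1.13 higher in tumours on the log2 count scale (exact permutation p = 0.0238, adjusted p = 0.0952), again with no overlap between tumours and sham, and 0.72 higher without sham 1. Zap70 to Cd3e was 0.84 higher (exact permutation p = 0.0476, adjusted p = 0.127), also without sham 1. Cd4 to Cd3e differed by -1.21 (adjusted p = 0.152 by the same exact test), and by -0.35 without sham 1. Cd2 to Cd3e differed by -0.81 (adjusted p = 0.476), Lck to Cd3e by 0.17 (adjusted p = 0.714) and Cd247 to Cd3e by -0.15 (adjusted p = 0.714). The last 3 changed sign when 1 sham library was left out. Between AC and model tumours, 3 libraries against 3 cannot give an exact p below 0.1, and the smallest of the 8 was 0.1, for Lck to Cd3e.

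**Figure D4:**
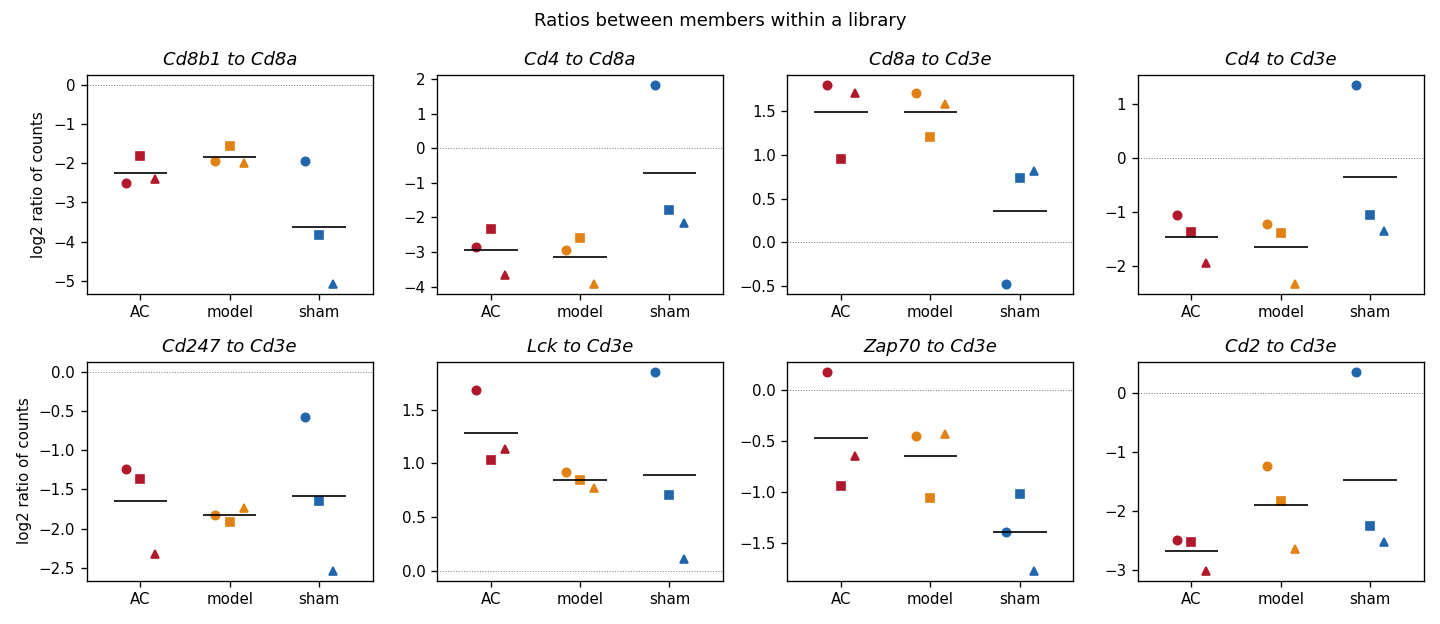
Log2 ratios of counts (with 0.5 added) between 2 members within each library, for AC tumours (red), model tumours (orange) and sham colon (blue); circle, square and triangle are replicates 1, 2 and 3, the bar is the group mean and the dotted line marks equal counts. Sham 1 is above the other sham libraries for Cd8b1 to Cd8a and Cd4 to Cd8a, and all 6 tumours are above sham for Cd8a to Cd3e.

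The receptor chains themselves were read through their 8 constant region genes. Trac, of the alpha chain, had 2.04, 1.16 and 1.68 CPM in AC 1 to 3, 2.60, 2.23 and 3.01 CPM in model 1 to 3, and 13.4, 2.88 and 2.27 CPM in sham 1 to 3. Apart from sham 1, colon and model tumours were at about the same level. Trac did not pass in any comparison, with log2 fold changes of -1.25 ± 0.722 for model against sham (edgeR adjusted p = 0.162), -1.94 ± 0.772 for AC against sham (edgeR adjusted p = 0.061) and -0.68 ± 0.296 for AC against model (edgeR adjusted p = 0.377). Trbc1 and Trbc2, the beta chain constant genes, did not pass either, with -1.53 and -2.42 for model against sham (edgeR adjusted p = 0.124 and 0.051) and -1.25 and -2.67 for AC against sham (edgeR adjusted p = 0.19 and 0.0708). Set against model tumours, AC tumours gave 0.30 for Trbc1 (edgeR adjusted p = 0.73) and -0.25 for Trbc2 (edgeR adjusted p = 0.878). With sham 1 left out, the log2 fold changes of Trac, Trbc1 and Trbc2 were 0.058, -0.13 and -0.73 for model against sham and -0.72, 0.062 and -1.09 for AC against sham, so the sign turned for Trac in model and for Trbc1 in AC tumours, and none passed. Trbc1 and Trbc2 are near-identical copies whose reads may have been split, so their separate values are uncertain.

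The gamma and delta chain genes did pass. Trdc, of the delta chain, had 1.09, 0.553 and 0.839 CPM in AC 1 to 3, 0.707, 0.955 and 0.570 CPM in model 1 to 3, and 2.72, 4.17 and 3.89 CPM in sham 1 to 3. It was lower in every tumour than in every colon library, and here sham 1 was the lowest of its group. Trdc fell by 2.23 ± 0.344 log2 units in model tumours against sham (edgeR adjusted p = 0.00127) and by 2.09 ± 0.376 in AC tumours against sham (edgeR adjusted p = 0.00286). Trgc1, a gamma chain constant gene, had 0, 1 and 7 counts in AC 1 to 3 and 3, 0 and 1 counts in model 1 to 3, against 47, 63 and 92 counts in sham 1 to 3. Trgc1 fell by 6.26 log2 units in model tumours against sham (edgeR adjusted p = 0.000278) and fell by 5.09 in AC tumours against sham (edgeR adjusted p = 0.00259). Trgc2 fell by 2.41 and Trgc4 fell by 4.80 in model tumours (edgeR adjusted p = 0.00101 and 0.000387), while in AC tumours Trgc2 fell by 2.83 and Trgc4 fell by 3.92 (edgeR adjusted p = 0.00077 and 0.00272). Sham 1 was the lowest colon library for all 3 genes. With sham 1 left out, the fold changes of Trdc, Trgc1, Trgc2 and Trgc4 were -2.39, -6.45, -2.55 and -5.10 for model and -2.33, -5.38, -3.06 and -4.31 for AC, and all passed. The gamma constant genes resemble one another, so reads may have moved between them. Trgc3 had 0 to 1 counts in tumours and 1 to 4 counts in colon and was not tested. In each comparison with sham, 4 of 7 tested constant genes were thus lower, with medians of -2.41 for model and -2.67 for AC, where 32.9% and 32.7% of all genes were called lower. Leaving out sham 1 gave 4 of 7 again, with medians of -2.39 and -2.33. Between AC and model, 0 of 5 passed, with a median of -0.25, and Trdc and Trgc2 gave 0.16 and -0.41.

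**Figure D5:**
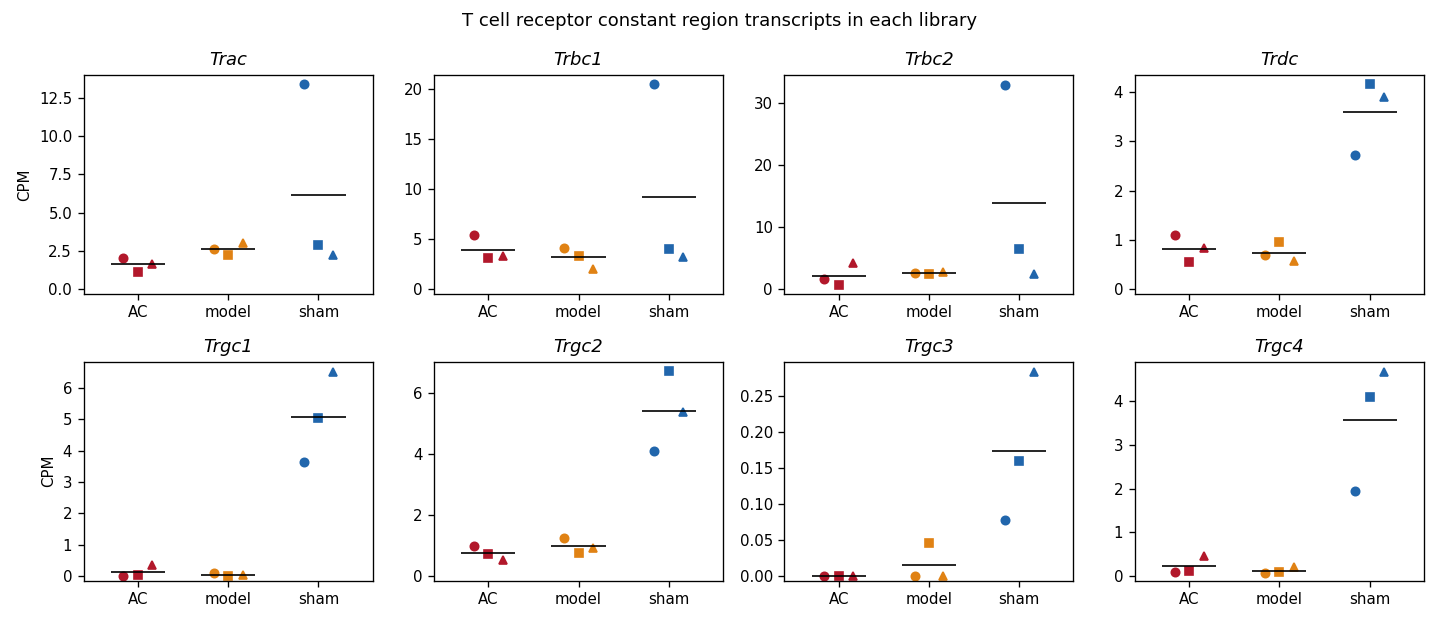
TMM-scaled CPM of the 8 T cell receptor constant region genes in every library, for AC tumours (red), model tumours (orange) and sham colon (blue); circle, square and triangle are replicates 1, 2 and 3 and the bar is the group mean. Alpha and beta genes are highest in sham 1, whereas Trdc and the gamma genes are higher in all 3 sham libraries than in any tumour, except that Trgc3 is at or near 0 throughout.

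For the gene lists that follow, the share of all genes called higher was 36.8% in model against sham and 35.5% in AC against sham, and the share called lower was 32.9% and 32.7%. Without sham 1 these shares were 42.4% and 38.7% higher and 36.4% and 36.9% lower.

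Of 30 adaptor, kinase, phosphatase and costimulatory genes, 28 were tested in model against sham, where 2 rose, 10 fell and 16 did not pass, with a median of -1.02. The count called lower was thus near the share of all genes, and fewer were called higher. Ptpn22, a phosphatase that restrains LCK, rose by 2.79 log2 units and Plcg1, a phospholipase used by many cells, by 1.49, while Csk, the kinase that keeps LCK inactive, fell by 0.91, Bcl10 by 1.26 and Nck1 by 1.33 (edgeR adjusted p = 0.00182, 0.000112, 0.000466, 0.000505 and 0.00267). In AC against sham, 2 of 26 rose and 10 fell, with a median of -1.12. Ptpn22 rose by 2.93 and Plcg1 by 1.26, and Pag1, an adaptor that recruits CSK, fell by 2.07, Bcl10 by 0.82 and Csk by 0.84 (edgeR adjusted p = 0.0019, 0.000755, 0.00466, 0.0017 and 0.00162). Without sham 1 the genes called higher came to 9 for model and 6 for AC, with 9 and 10 lower, and the medians were 0.13 and -0.39, so the median for model turned sign. The named genes all passed there with the same sign. In AC against model 0 of 27 passed, and Bcl10, with 0.46, had the smallest p (edgeR adjusted p = 0.24). Across the tumours Ptpn22 had 60.9 to 89.0 CPM and Csk 57.3 to 77.4 CPM, where Cd3e had 1.71 to 4.04 CPM. How much of the values of the genes named here came from cells other than T cells was not tested.

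Of 15 T cell transcription factor genes, 1 rose and 7 fell in model tumours against sham, with a median of -1.61, and 0 of 14 rose and 7 fell in AC tumours against sham, with a median of -2.06. Foxp3, the factor of regulatory T cells, had 0.808, 0.443 and 0.734 CPM in AC 1 to 3, 1.15, 1.50 and 0.933 CPM in model 1 to 3, and 0.622, 0.320 and 0.212 CPM in sham 1 to 3. All model libraries were above all sham libraries, and AC overlapped with sham. These values came from few reads, 8 to 17 counts in AC, 18 to 33 in model and 8, 4 and 3 counts in sham 1 to 3. Sham 3 was thus at the floor of 3 counts. Foxp3 rose by 1.64 ± 0.479 log2 units in model tumours against sham (edgeR adjusted p = 0.0199), the one gene of the list called higher there with all sham libraries. Bcl11b and Zbtb7b fell by 4.81 and 2.62 in model tumours, and Bcl11b, Tox and Zbtb7b by 5.22, 3.14 and 2.37 in AC tumours (edgeR adjusted p from 0.000291 to 0.00159). In sham 1 to 3 Zbtb7b had 156, 416 and 428 CPM and Bcl11b 31.1, 26.9 and 27.0 CPM. Cd3e had 10.5, 7.85 and 8.78 CPM in the same libraries. The part of cells other than T cells in the Zbtb7b and Bcl11b values was not tested. Without sham 1 the genes called higher were 6 for model and 4 for AC, with 7 lower in each, and the medians were -0.10 and -0.78. Foxp3 rose by 2.19 there in model tumours, and the fold changes of Bcl11b and Zbtb7b were -4.72 and -2.95 in model and those of Bcl11b, Tox and Zbtb7b -5.23, -2.85 and -2.79 in AC tumours. In AC against model 0 of 14 passed, with a median of -0.37, and Ets1, with -0.34, had the smallest p (edgeR adjusted p = 0.29).

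Genes of neighbouring cell types were counted in the same way, because Cd247, Lck, Zap70 and Cd2 are also transcribed in NK cells and Cd8a in dendritic cells. Of 6 intraepithelial lymphocyte genes, 5 fell in model tumours and 6 in AC tumours against sham, with medians of -1.69 and -2.27, and Trdc is also in the list above. Cd7 fell by 4.86 and Cd160 by 1.67 in model tumours, and Cd7 by 4.80 and Cd160 by 1.73 in AC tumours (edgeR adjusted p = 0.00156 and 0.0081, and 0.000978 and 0.00175). Without sham 1, 5 fell in each, with medians of -1.61 and -2.05, and the fold changes of Cd7 and Cd160 were -5.26 and -1.63 in model and -5.29 and -1.77 in AC tumours. The list summed to 6.20 to 7.32 CPM in AC, 7.00 to 9.56 CPM in model and 27.7 to 31.6 CPM in sham libraries. Sham 1 was level with the others in this sum but not in each gene. Gpr18 had 11.4, 2.64 and 1.77 CPM in sham 1 to 3, and Cd7 had 2.57, 10.7 and 9.06 CPM. Itgae and Trdc were also lowest in sham 1 among colon libraries, and Cd160 and Ccr9 were not.

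Of 6 NK cell genes tested, 3 rose and 0 fell in each kind of tumour against sham, and 2 of 6 in model and 3 of 6 in AC tumours had a fold change below 0. The medians were 0.82 for model and 0.55 for AC. Without sham 1, 3 rose in model and 2 in AC tumours, with medians of 0.88 and 0.41. Klrk1, an activating receptor of NK cells and CD8 T cells, had 4.28, 3.71 and 6.87 CPM in AC 1 to 3, 9.41, 7.00 and 11.2 CPM in model 1 to 3, and 2.33, 1.44 and 2.19 CPM in sham 1 to 3. The 3 groups did not overlap. Klrk1 rose by 2.22 in model and by 1.32 in AC tumours against sham, Klre1 by 1.72 and 1.53, and Ncr1 by 1.20 and 1.55 (edgeR adjusted p from 0.00102 to 0.0357). Without sham 1 Klrk1 rose by 2.36 and 1.37, Ncr1 by 1.27 and 1.54 and Klre1 by 1.38 in model tumours, while Klre1 in AC tumours gave 1.09 (edgeR adjusted p = 0.0666). Klra4 and Klra8 had at most 2 counts in any tumour, with at most 7 and 3 counts in colon. The list summed to 13.2 to 22.1 CPM in AC, 19.8 to 28.8 CPM in model and 14.1 to 16.3 CPM in sham libraries, and the share of NK cells in the values of Lck, Zap70, Cd247 and Cd2 was not tested.

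B cell and follicle genes were 8 of 11 lower and 1 higher in model tumours and 9 lower and 1 higher in AC tumours against sham, with medians of -5.18 and -5.96, and 7 and 9 lower without sham 1, with medians of -2.65 and -4.23. Ms4a1, which defines B cells, had 0, 1 and 5 counts in AC 1 to 3 and 94, 5 and 3 counts in model 1 to 3, against 3967, 384 and 185 counts in sham 1 to 3. Macrophage genes were 8 of 9 higher and 1 lower in each, with medians of 3.14 and 3.32 (4.04 and 4.05 without sham 1), and summed to 866 to 1247 CPM in AC, 776 to 1017 CPM in model and 230 to 241 CPM in sham libraries. Dendritic cell genes were 3 of 5 higher in model and 2 of 5 higher in AC tumours, with medians of 1.60 and -0.03, the second turning to 0.04 with upper-quartile factors, 0.61 without scaling factors and 0.32 without sham 1, where the median for model was 1.72 and 3 and 2 were called higher. Epithelial genes were 7 of 8 lower in each, with medians of -7.74 and -6.73, and 3 and 1 were called lower without sham 1, with medians of -7.82 and -6.97. Smooth muscle genes were 5 of 5 lower in each, with medians of -4.99 and -4.37, and 5 and 4 were called lower without sham 1, with medians of -5.53 and -4.86. In AC against model 0 genes of any of these 7 cell type lists passed, and the medians were -0.07 for intraepithelial lymphocyte, -0.18 for NK cell, -1.19 for B cell, 0.10 for macrophage, -0.42 for dendritic cell, 0.91 for epithelial and 1.50 for smooth muscle genes.

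Across the 9 libraries, the CD3 level, the mean log2(CPM + 0.5) of Cd3d, Cd3e and Cd3g, was 0.81 to 1.20 in AC, 1.16 to 1.62 in model and 2.56 to 4.05 in sham libraries. Among 13125 genes with a mean of at least 1 CPM, those with the pattern most like it were Chchd7 (Pearson r = 0.996), B2m (r = 0.992), Psma6 (r = 0.990), H2-Ob (r = 0.990) and Smim11 (r = 0.989). After the group mean was subtracted from each library, they were Ly86 (r = 0.994), Paip2 (r = 0.993), Rps23 (r = 0.992), Sept1 (r = 0.991) and Cep68 (r = 0.991). The 9 points share the contrast of tissue and the distance of sham 1, so these values describe these libraries only. Among the members, Lck followed the CD3 level with r = 0.964, whereas Cd8a gave 0.425 and Cd8b1 -0.153 across the 9 libraries, and after subtracting group means Cd8a gave -0.339 and Cd8b1 0.953.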

How the data were processed

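Gene expression was measured by RNA-seq in 3 AC tumour, 3 model tumour and 3 sham colon libraries, grouped by the treatment and tissue labels. Trizol was used to extract RNA and the VAHTS Universal V6 kit to make libraries, per the labels' protocols. The authors deposited raw read counts per gene for 56398 features, made with tools that included featureCounts 1.5.0-p3, with mm9 named as the build, per the submitters' processing notes. The aligner and strand setting are not stated in the sources used here. The authors also deposited FPKM values, which equal the deposited count divided by gene length and library total within 1% for 100% of 11138 genes with 20 or more counts in every library. The implied lengths of all 10 members equal their summed exons in GENCODE M21 on GRCm38, so that annotation, not mm9, was used for symbols and positions.

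Each comparison was fitted to the deposited counts of the 6 libraries concerned by edgeR 4.0.16, run in R 4.3.3 (TMM factors, filterByExpr, robust glmQLFit, glmQLFTest, Benjamini-Hochberg over all genes tested, threshold 0.05). Fold changes are log2 with an SE derived from the fold change and the F statistic. CPM values use TMM factors over all 9 libraries, and log2 ratios within a library add 0.5 to each deposited count. The fits were tested on simulated counts with known changes, and exact permutation tests used scipy 1.17.1. Reads carry no molecular identifiers, so the floor of 3 counts covers counting error only. Libraries of a group all differed by more than sampling noise, sham 2 and sham 3 by the least. Alternatives were other scaling, other filters, DESeq2 1.42.0, 1 fit of all 9 libraries, a replicate block and leaving out libraries.

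The members and lists were chosen with earlier results of these data known, and the listed genes named in the text are up to 3 per direction with the smallest adjusted p among those called, or the 1 with the smallest p where none was called. Some genes of the lists that this rule names are counted but not reported here by name. Every T cell receptor constant gene was named. The genes most like the CD3 level are the 5 with the highest Pearson r among symbols that are no Gm, Rik or pseudogene names. The ratios of gamma and delta to alpha and beta genes and those to Ptprc, and 2 pairs of libraries left out together, sham 1 with model 1 and sham 1 with AC 3, were chosen after values had been seen.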

Additional observations from a re-analysis of the deposited data

How the results depend on the processing

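Low counts limit the tumour values, since Cd3d, Cd247, Cd4 and Cd2 had 6 to 38 counts in a tumour library, and sham 1 limits every comparison with colon. Genes called between AC and model tumours were 0 as reported, 105 with no filter on low counts (23 higher, 82 lower), 305 in DESeq2 (82 higher, 223 lower), 94 without model 1 and AC 3 together (14 higher, 80 lower) and 0 to 569 when 1 library was left out, the 569 being without AC 3. Of the members, 0 were called in each of these. Nearest to the threshold was Cd8b1 without AC 3, with -1.38 (edgeR adjusted p = 0.0516), in the refit that called the 569 genes. Members called in model against sham were 2 to 7 when 1 library was left out, and 4 without scaling factors (Cd3d, Cd3e and Cd4 lower and Cd8b1 higher). Members called in AC against sham were 5 to 9 when 1 library was left out, and 6 without scaling factors, where Lck and Zap70 were lost. Genes called in model against sham were 11677 to 15339, and in AC against sham 10899 to 14360, when 1 library was left out. Omitting scaling factors shifted the median of all genes by 0.61 in model against sham and 0.65 in AC against sham, and the calls there were 9060 higher and 4405 lower for model, against 6700 and 5997 as reported, and 8832 higher and 4114 lower for AC, against 6339 and 5826. DESeq2 and the fit of all 9 libraries both called Cd8b1 higher and Cd2 lower in model against sham, and Cd8a lower in AC against sham.

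Signs turned as follows. Cd3d in AC against model gave 0.042 without AC 1 and 0.087 without model 1 (range -0.47 to 0.087 over single libraries left out). Cd8a in model against sham gave 0.40 and Zap70 gave 0.046 without scaling factors, and Cd8a gave 0.0068 without model 2 (range -0.46 to 0.0068). Cd8b1 in AC against sham gave -0.02 without AC 3 and -0.17 without sham 3 (range -0.17 to 0.91). The log2 ratio of Cd247 to Cd3e, tumours minus sham, gave 0.36 without sham 1 (range -0.62 to 0.36) and 0.023 without model 1 and AC 3 together, that of Lck to Cd3e gave -0.22 without sham 3 (range -0.22 to 0.66), and that of Cd2 to Cd3e gave 0.11 without sham 1 (range -1.34 to 0.11). The cause of these turns was not tested. Over single members and all alternatives, calls and signs held in 144 of 146 refits for AC against model. In model against sham 121 held, 16 lost a call, 10 gained one and 3 turned sign, and in AC against sham 130 held, 13 lost a call, 5 gained one and 2 turned sign.

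With the replicate number as a block, 0 genes were called in AC against model, 11774 in model against sham and 11303 in AC against sham, with 0, 5 and 7 members, Cd247 being lost for model and Zap70 for AC. Same-numbered libraries deviated from their group means with correlations of -0.58, 0.49 and -0.37 between AC and model. The correlations were -0.06, 0.00 and -0.12 between model and sham, and 0.14, -0.01 and 0.09 between AC and sham. Between AC and model the signs were mixed, and whether same-numbered libraries share more than a number was not tested. Without sham 1 and model 1 together, an alternative added after the data were seen, 6 members were called lower in model against sham, Cd3d, Cd3e, Cd3g, Cd4, Lck and Cd2, and Cd8b1 was called higher. Without sham 1 and AC 3 together, also added later, 9 were called lower in AC against sham, all but Cd8b1.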

Other observations

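Variable segments of the receptor were counted as single genes, and 144 of them are in the tables. Their counts summed to 25, 20 and 51 in AC 1 to 3, to 113, 45 and 76 in model 1 to 3, and to 228, 101 and 111 in sham 1 to 3. Segments with at least 1 count numbered 12, 12 and 21 in AC 1 to 3, 27, 22 and 25 in model 1 to 3, and 51, 27 and 28 in sham 1 to 3. The number of segments with a count was lower in every AC than in every model library, while the summed counts overlapped, with AC 3 above model 2, and the AC library totals were 15690038 to 17900328 counts, against 16495522 to 23476056 counts in model tumours. The 22 beta chain segments summed to 14, 8 and 28 counts in AC 1 to 3, 69, 20 and 40 counts in model 1 to 3, and 154, 23 and 15 counts in sham 1 to 3. The 7 gamma chain segments summed to 1, 4 and 8 counts in AC 1 to 3, 18, 4 and 16 counts in model 1 to 3, and 15, 61 and 73 counts in sham 1 to 3. Sham 2 and sham 3 thus held more gamma than beta segment counts, and sham 1 more beta than gamma.

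The same division of colon libraries was seen in the constant genes. Trdc over Trac counts came to 0.535, 0.476 and 0.5 in AC 1 to 3, 0.271, 0.429 and 0.190 in model 1 to 3, and 0.203, 1.44 and 1.72 in sham 1 to 3. Counts of the 4 gamma genes over those of Trac, Trbc1 and Trbc2 came to 0.119, 0.180 and 0.148 in AC 1 to 3, 0.153, 0.114 and 0.151 in model 1 to 3, and 0.147, 1.20 and 2.09 in sham 1 to 3. The 6 tumours and sham 1 were thus of one range and sham 2 and sham 3 of another. Set against 100 counts of Ptprc, Cd3d, Cd3e and Cd3g together came to 5.42, 7.35 and 7.15 counts in AC 1 to 3, 8.67, 7.51 and 8.57 in model 1 to 3, and 17.1, 33.4 and 32.1 in sham 1 to 3. By this measure Cd3g, Cd8b1, Cd2 and the CD3 sum were lower in every AC than in every model library, and sham 1 was the lowest colon library for the sum. Lck went the other way, with 7.05, 6.81 and 7.34 per 100 Ptprc counts in AC 1 to 3, 6.12, 6.70 and 6.48 in model 1 to 3, and 12.8, 20.9 and 16.9 in sham 1 to 3. For the other 6 members, Cd3d, Cd3e, Cd247, Cd4, Cd8a and Zap70, the AC and model libraries overlapped. Cd8b1 came to 1.33, 1.79 and 2.04 per 100 Ptprc counts in AC 1 to 3, 2.76, 2.92 and 2.83 in model 1 to 3, and 0.652, 1.44 and 0.756 in sham 1 to 3. These ratios are descriptions with no test.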
